A study of Bos taurus with 10 samples.

Results

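The genes described here make and move bile acids in the liver. They were taken by name from a fixed list of 10 genes: the cholesterol hydroxylase CYP7A1, the other sterol hydroxylases CYP7B1, CYP8B1 and CYP27A1, the steroid reductase AKR1D1, the conjugating enzyme BAAT, the repressor NR0B2, the bile acid transporters ABCB11 and SLC10A1, and the growth factor receptor FGFR4. A probe set, which is a group of short probes that reads 1 transcript, was included when the platform annotation gave it exactly 1 gene symbol and that symbol was on the list. This gave 8 of the 24016 probe sets tested, covering 4 of the 10 genes, out of 9155 genes on the array with a symbol of their own. CYP7A1 and CYP27A1 had 1 probe set each, SLC10A1 had 4 and FGFR4 had 2, and the sets of a gene are numbered below from the brightest. CYP7B1, CYP8B1, AKR1D1, BAAT, NR0B2 and ABCB11 had no probe set under a single symbol and were not analysed here.

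The livers came from 40 female Holstein cows, primiparous and multiparous, biopsied in week 5 of lactation. The CLA group of 20 cows received a rumen-protected fat supplement with conjugated linoleic acid, a family of linoleic acid isomers whose double bonds are parted by a single bond only, and the control group of 20 cows received a rumen-protected control fat. Both groups ate the same mixed ration, and the fat supplied 27.3% of an additional concentrate, of which each cow was fed 630 g dry matter daily. Feeding began in week 3 before calving and ended in week 14 of lactation. Liver RNA of 4 cows was pooled for each array, giving 5 CLA pools and 5 control pools, so every spread below is between pools of 4 cows and not between single cows.

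Bile acids are made from cholesterol in hepatocytes. In the classical route CYP7A1 adds the first hydroxyl group and sets the pace, while in the acidic route CYP27A1 oxidizes the sterol side chain first. Bile acids that return from the gut are taken up from portal blood by SLC10A1, and a gut-derived growth factor signals through FGFR4 to lower CYP7A1 transcription.

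All values are log2 signals as the authors deposited them, and all differences are CLA minus control on that scale, so that a difference of 1 is a doubling. Levels of different probe sets are not comparable with each other, since each binds its target with its own strength. Array medians were 5.79 to 5.82 in CLA pools and 5.83 to 5.85 in control pools, without overlap, and the median difference over all probe sets was -0.018. The spread of values within an array, as an SD over probe sets, was 2.38 to 2.43 in CLA pools and 2.34 to 2.39 in control pools (exact permutation p = 0.0238, adjusted 0.155). Hepatocyte markers were bright on every array: the mean of 10 markers lay between 12.36 and 12.52 in CLA pools and between 12.26 and 12.46 in control pools (exact permutation p = 0.238, two-sided). Of these 10 markers, 9 had positive differences and 1 a negative one, with a median of 0.049, and their part in the differences below was not tested. All 8 measured T and NK lymphocyte markers had negative differences, with means of 6.42 to 6.68 in CLA pools and 6.60 to 7.02 in control pools (exact permutation p = 0.0714, Benjamini-Hochberg adjusted 0.310 over 13 array measures), and their part in the differences below was not tested. The median marker difference was 0.055 for cholangiocytes (6 genes), -0.065 for macrophages (6 genes), -0.048 for endothelial cells (7 genes), 0.15 for stellate cells and fibroblasts (7 genes), -0.070 for erythroid cells (4 genes) and -0.11 for skeletal muscle (7 genes), with overlapping pools in each list. In pooled tissue, fewer cells of a type and less RNA per cell cannot be told apart.

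CYP7A1, the rate-limiting enzyme of the classical route, had the widest difference of the 8 probe sets. Its signal (probe set Bt.16652.1.A1_at) was 11.84, 12.43, 12.36, 12.06 and 12.32 in CLA pools 1 to 5, against 11.66, 11.88, 11.96, 11.36 and 11.86 in control pools 1 to 5. Of the 5 CLA pools, 4 lay above every control pool, and CLA pool 1 lay within the control range, below control pools 2, 3 and 5. The CLA mean was 12.20 ± 0.25 and the control mean 11.74 ± 0.24 (SD, n = 5 each). The difference was 0.46 ± 0.14 SE, with a 95% interval from 0.16 to 0.75, or 1.37-fold.

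That difference did not pass the test over the whole array. Its p was 0.00557 before and 0.408 after Benjamini-Hochberg adjustment over 24016 probe sets in limma, a linear model that shares the spread between probe sets, and an exact two-sided permutation test over all regroupings of the 10 arrays gave p = 0.0317. By unadjusted p it ranked 326 of 24016. No probe set of the array passed an adjusted p of 0.05 (background 0%, lowest adjusted p = 0.252), while 8.89% of all probe sets had an unadjusted p under 0.05 in limma. The difference moved by over 1.5 times when CLA pool 2 and control pool 4, the arrays least like the others, were both left out, to 0.31 ± 0.12 SE (adjusted p = 0.607). After quantile normalization, which gives every array the same spread, it was 0.42 ± 0.14 SE (adjusted p = 0.494).

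**Figure D1:**
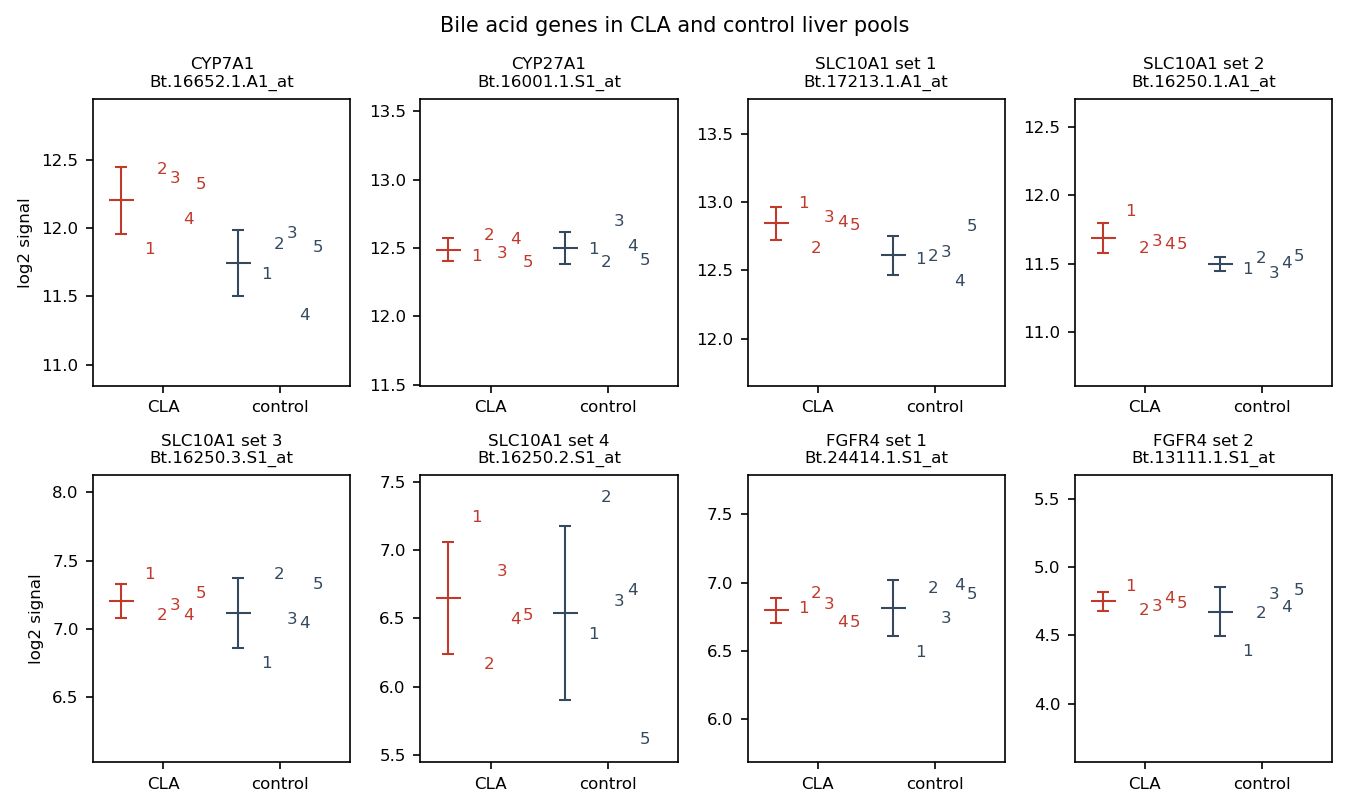
Signal (log2, vertical axis) of the 8 probe sets in each pool, CLA at left and control at right. Digits are pool numbers and bars are the mean ± SD of 5 pools; every panel spans the same height. For CYP7A1, CLA pool 1 (11.84) lies among the control pools, and for SLC10A1 set 2 the lowest CLA pool (11.61) lies above the highest control pool (11.55).

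CYP27A1, the mitochondrial hydroxylase that opens the acidic route, did not differ between the groups beyond the spread of the pools. Its signal (Bt.16001.1.S1_at) was 12.44, 12.59, 12.46, 12.56 and 12.39 in CLA pools, against 12.49, 12.39, 12.69, 12.51 and 12.41 in control pools. All CLA values fell inside the control range. The difference was -0.01 ± 0.076 SE, with a 95% interval from -0.17 to 0.15 (limma adjusted p = 0.984). The sign of so small a difference turned positive, to 0.021, when array medians were subtracted.

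Because both hydroxylases were read on the same arrays, a shift in the brightness of a whole array cancels in their log ratio. This ratio, and the others of its kind, were chosen after the values were seen. CYP7A1 minus CYP27A1 was -0.60, -0.16, -0.10, -0.50 and -0.07 in CLA pools, against -0.83, -0.51, -0.73, -1.15 and -0.55 in control pools. CLA pool 1 again lay within the control range, and the other CLA pools lay above all control pools. The ratio differed by 0.47 ± 0.16 SE (exact permutation p = 0.0317, Benjamini-Hochberg adjusted 0.0952 over 3 ratios), so it missed the threshold after adjustment. Since CYP27A1 differed by only -0.01, this ratio largely repeats the CYP7A1 difference and is not separate evidence. CYP7A1 relative to SLC10A1 set 1 differed by 0.22 ± 0.17 SE (exact permutation p = 0.246), and SLC10A1 relative to CYP27A1 by 0.24 ± 0.12 SE (exact permutation p = 0.0873).

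SLC10A1, the sodium-dependent transporter that takes up bile acids from portal blood, was read by 4 probe sets that all had higher CLA means. On set 1 (Bt.17213.1.A1_at) the signal was 12.99, 12.66, 12.89, 12.85 and 12.83 in CLA pools, against 12.58, 12.60, 12.63, 12.42 and 12.82 in control pools. All CLA pools but pool 2 lay above every control pool, and control pool 5 reached the CLA range. The difference was 0.23 ± 0.087 SE, with a 95% interval from 0.045 to 0.42 (limma p = 0.0192, adjusted p = 0.473, exact permutation p = 0.0159).

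SLC10A1 set 2 (Bt.16250.1.A1_at), also bright, was the 1 member whose groups did not overlap. Its signal was 11.88, 11.61, 11.66, 11.64 and 11.64 in CLA pools, against 11.46, 11.54, 11.43, 11.50 and 11.55 in control pools. The gap between the groups was narrow, from 11.61 in CLA pool 2 to 11.55 in control pool 5, and CLA pool 1 stood well above the other CLA pools. The difference was 0.19 ± 0.070 SE (limma p = 0.0184, adjusted p = 0.470), and its exact permutation p = 0.0079 is the smallest that 5 pools against 5 allow. Over the whole array 1.97% of probe sets (473) had groups that did not overlap. Leaving out single pools raised that number to between 611 and 925, so such counts are not comparable between settings. After quantile or cyclic loess normalization the groups of this probe set overlapped. This probe set is left out when each gene is read by its brightest set.

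The dimmer SLC10A1 probe sets varied more between control pools. Set 4 (Bt.16250.2.S1_at) read 7.24, 6.16, 6.84, 6.49 and 6.52 in CLA pools, against 6.38, 7.38, 6.62, 6.70 and 5.61 in control pools, and the groups overlapped almost fully. It differed by 0.11 ± 0.28 SE (limma adjusted p = 0.942), with a 95% interval from -0.50 to 0.72 that contains the differences of both bright sets. Its sign turned negative without CLA pool 1 (-0.036) or without control pool 5 (-0.12). Set 3 (Bt.16250.3.S1_at) read 7.40, 7.10, 7.17, 7.10 and 7.26 in CLA pools, against 6.75, 7.40, 7.07, 7.04 and 7.33 in control pools, a difference of 0.09 ± 0.12 SE (limma adjusted p = 0.873) that stood at -0.004 without control pool 1. Without CLA pool 1, the highest CLA pool on all 4 sets, SLC10A1 set 1 differed by 0.20 and set 2 by 0.14, and both missed an unadjusted p of 0.05 in limma (adjusted p = 0.647 each).

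FGFR4, the hepatocyte receptor through which gut-derived growth factor restrains CYP7A1, showed no difference beyond the spread on either probe set. Set 1 (Bt.24414.1.S1_at) read 6.81, 6.92, 6.84, 6.71 and 6.71 in CLA pools, against 6.49, 6.96, 6.74, 6.98 and 6.91 in control pools, and every CLA value fell inside the control range. It differed by -0.02 ± 0.098 SE, with a 95% interval from -0.23 to 0.19 (limma adjusted p = 0.977), and its sign turned with the subtraction of array medians (0.013). Set 2 (Bt.13111.1.S1_at) read 4.86, 4.68, 4.71, 4.77 and 4.73 in CLA pools, against 4.38, 4.66, 4.80, 4.70 and 4.83 in control pools, a difference of 0.08 ± 0.088 SE (limma adjusted p = 0.843). Its signal was low, at percentile 34.8 of the mean signals of all probe sets, against percentile 63.2 for set 1. On both sets control pool 1 was the lowest of the 10 pools, and without it set 2 differed by 0.0025 and set 1 by -0.10 (limma adjusted p = 0.996 and 0.775).

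**Figure D2:**
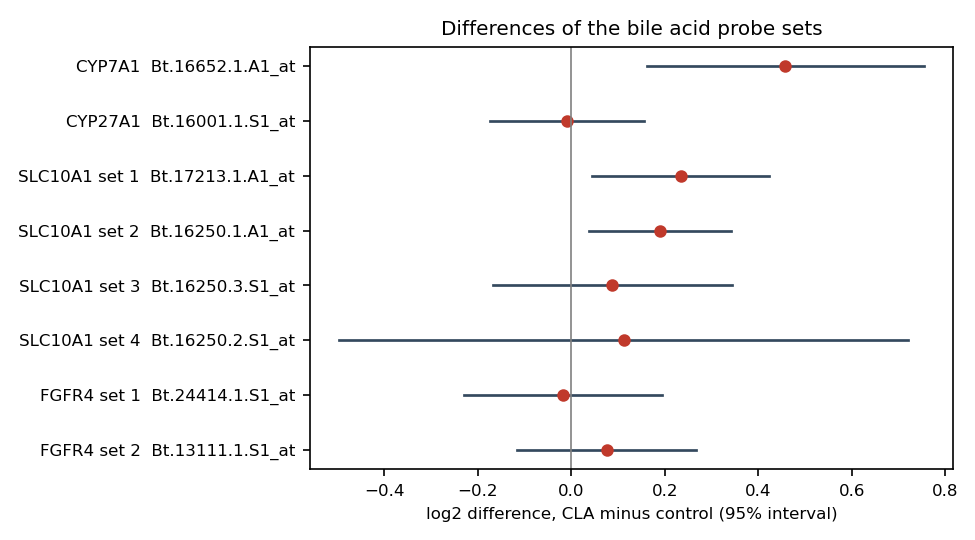
Differences of the 8 probe sets (log2, CLA minus control; points) with 95% intervals from limma (lines). The intervals of CYP7A1 (0.16 to 0.75) and of the bright SLC10A1 sets 1 and 2 lie above 0, before any adjustment for the number of probe sets. Those of CYP27A1, of FGFR4 and of the dimmer SLC10A1 sets 3 and 4 include 0.

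Of the 8 probe sets, 6 had positive and 2 negative differences, with a median of 0.10. The median over all probe sets was -0.018, and -0.004 without the dimmest 30% of them. The 6 positive probe sets included all 4 of SLC10A1. An unadjusted p under 0.05 was reached by 3 of the 8, all higher in CLA pools, where 4.01% of all probe sets were higher at that level and 8.89% reached it in either direction. Of these 3, 2 read the same gene, so they stand for CYP7A1 and SLC10A1 alone, and 0 of the 8 passed the adjusted test. After cyclic loess normalization CYP7A1 alone remained under an unadjusted p of 0.05, at a difference of 0.42, while SLC10A1 sets 1 and 2 stood at 0.19 and 0.15 (limma adjusted p = 0.615 each).

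No relation between the members from pool to pool passed its test after adjustment. With group means removed, CYP7A1 and SLC10A1 set 1 had Pearson's r = 0.050 over 10 pools (exact permutation p = 0.895, Spearman's rho = 0.030 with permutation p = 0.947, and r = -0.11 without the 2 pools farthest from the CYP7A1 median). CYP7A1 and CYP27A1 had r = 0.13 (exact permutation p = 0.721, rho = 0.18 with permutation p = 0.647, and r = 0.11 without the 2 farthest pools). CYP7A1 and SLC10A1 set 2 had r = -0.54 (exact permutation p = 0.118, rho = -0.57 with permutation p = 0.10), and r = -0.019 without the 2 farthest pools, so that value rests on those pools. The closest pair was SLC10A1 set 2 with set 3, at r = 0.64 (exact permutation p = 0.0108, adjusted p = 0.152) and rho = 0.65 (exact permutation p = 0.0406, adjusted p = 0.533), with r = 0.55 without the 2 farthest pools. Of 14 such relations, 7 between CYP7A1 and the other probe sets and 7 between probe sets of the same gene, 0 passed Benjamini-Hochberg adjustment.

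The genes whose signal most resembled that of CYP7A1 from pool to pool were sought among 7769 genes in the brightest 70% of probe sets, with group means removed. The highest correlations over the 10 pools belonged to the cation channel gene TRPV2 (r = 0.95, rho = 0.82), the DNA glycosylase gene NEIL2 (r = 0.92, rho = 0.94), the histone deacetylase gene HDAC7 (r = 0.89, rho = 0.66), LRATD1 (r = 0.88, rho = 0.87) and the matrix glycoprotein gene EMILIN2 (r = 0.88, rho = 0.94). The lowest belonged to PDIA5, a protein disulfide isomerase (r = -0.94, rho = -0.95), ALDH5A1, succinate semialdehyde dehydrogenase (r = -0.93, rho = -0.88), and PCBD1, a pterin dehydratase and HNF1 cofactor (r = -0.91, rho = -0.81). These are the extremes of 7769 values and are given without a p. Without control pool 4 and CLA pool 1, the pools farthest from their group means in CYP7A1, r was 0.89 for TRPV2, 0.70 for NEIL2 and 0.51 for HDAC7. The differences of these 8 genes between CLA and control pools lay between -0.084 for PDIA5 and 0.14 ± 0.075 SE for EMILIN2 (limma adjusted p = 0.838 and 0.632), with 0.03 for TRPV2, 0.01 for NEIL2 and 0.086 for ALDH5A1.

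Beyond the named members, 69 other genes of bile acid and cholesterol handling were listed, and 47 had a probe set. Each was read by its brightest set. Of the 47 genes, 24 had positive and 23 negative differences, with a median of 0.002, against -0.010 over the 9155 genes with a symbol. At an unadjusted p under 0.05, 1 of the 47 was higher and 0 lower, where 8.50% of genes with a symbol reached that level, and 0 passed the adjusted test.

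Among 14 other enzymes and carriers of synthesis, 11 had positive and 3 negative differences, with a median of 0.068. These counts rest on the values as deposited, and the share of positive differences among equally bright genes was not counted. SCP2, which encodes a peroxisomal thiolase that shortens the bile acid side chain and a sterol carrier protein, had the smallest p. Among the 47 genes it alone had groups that did not overlap, where 199 of 9155 genes with a symbol did. Such groups always give the smallest exact permutation p that 5 pools against 5 allow. The SCP2 signal was 12.58, 12.60, 12.73, 12.58 and 12.78 in CLA pools, against 12.34, 12.33, 12.47, 12.33 and 12.41 in control pools, so the groups did not overlap. The difference was 0.28 ± 0.068 SE, or 1.21-fold (limma p = 0.00146, adjusted p = 0.327, exact permutation p = 0.0079), and it lay between 0.24 and 0.31 over the 20 alternatives in which it was computed.

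ACOT8, SLC27A2 and ABCD3 came next by p, with positive differences that missed an unadjusted p of 0.05 in limma. ACOT8, a peroxisomal acyl-CoA thioesterase, differed by 0.18 ± 0.084 SE (limma p = 0.0540, adjusted p = 0.568, exact permutation p = 0.0317). It reached an unadjusted p under 0.05 in limma in 9 of 20 alternatives and stood at 0.11 without control pool 5 (limma adjusted p = 0.699). SLC27A2, an acyl-CoA synthetase that activates bile acid precursors, differed by 0.20 ± 0.097 SE (limma adjusted p = 0.574). ABCD3, a transporter of the peroxisomal membrane, differed by 0.21 ± 0.10 SE (limma adjusted p = 0.576). AMACR and HSD17B4, which act on the same side chain, differed by 0.04 ± 0.18 SE and 0.06 ± 0.062 SE, and ACOX2, the branched-chain oxidase of that step, by -0.06 ± 0.087 SE. CYP39A1, an oxysterol hydroxylase, differed by 0.14 ± 0.16 SE, and HSD3B7, which acts after CYP7A1 in the classical route, by 0.04 ± 0.062 SE.

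Of 10 other transporters and binding proteins, 5 had positive and 5 negative differences, with a median of 0.007. SLCO2B1 and SLCO1B3, sodium-independent uptake carriers of the liver cell membrane, differed by 0.11 ± 0.073 SE and 0.07 ± 0.060 SE. FABP6, an intracellular bile acid binding protein best known from the ileum, differed by -0.09 ± 0.091 SE at a low signal of 4.16 in CLA pools and 4.25 in control pools, and by -0.028 without control pool 4. The sterol exporter subunit ABCG8 had a wide spread, with SDs of 0.68 in CLA pools and 0.48 in control pools, and differed by -0.25 ± 0.31 SE. The organic solute transporter subunits SLC51A and SLC51B differed by -0.07 ± 0.097 SE and 0.06 ± 0.17 SE.

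Of 13 regulators, 5 had positive and 8 negative differences, with a median of -0.016. NR1H2, the oxysterol receptor LXR beta, differed by -0.15 ± 0.080 SE (limma adjusted p = 0.628), and PPARA, the fatty acid receptor, by -0.27 ± 0.17 SE (limma adjusted p = 0.688). Without CLA pool 3 the PPARA difference was -0.16 (limma adjusted p = 0.904), and without control pool 5 it was -0.37, with an unadjusted p of 0.0455 in limma (adjusted p = 0.613). NR5A2, an orphan receptor that activates CYP7A1 transcription, differed by -0.19 ± 0.22 SE, and by 0.002 without CLA pool 2. KLB, the co-receptor of FGFR4, differed by -0.03 ± 0.13 SE, HNF4A, a hepatocyte activator of CYP7A1, by 0.06 ± 0.19 SE, and RXRA, the shared partner of many of these receptors, by -0.002 ± 0.064 SE.

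Of 10 genes of cholesterol supply and disposal, 3 had positive and 7 negative differences, with a median of -0.019. LCAT, which esterifies plasma cholesterol, differed by -0.09 ± 0.10 SE, by -0.021 without control pool 4 and by -0.16 without CLA pool 2. NPC2, a lysosomal cholesterol carrier, differed by -0.05 ± 0.077 SE and by -0.012 without CLA pool 2, and HMGCS1, an early enzyme of cholesterol synthesis, by 0.08 ± 0.18 SE. SCARB1, the lipoprotein receptor that delivers cholesterol to hepatocytes, differed by -0.01 ± 0.078 SE, and SREBF2, the transcription factor of cholesterol synthesis, by -0.03 ± 0.065 SE. A second, dimmer SREBF2 probe set (means of 3.59 in CLA pools and 3.79 in control pools) differed by -0.19 ± 0.075 SE (limma adjusted p = 0.497), and among all probe sets of the 47 genes it was the 1 that was lower at an unadjusted p under 0.05.

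**Figure D3:**
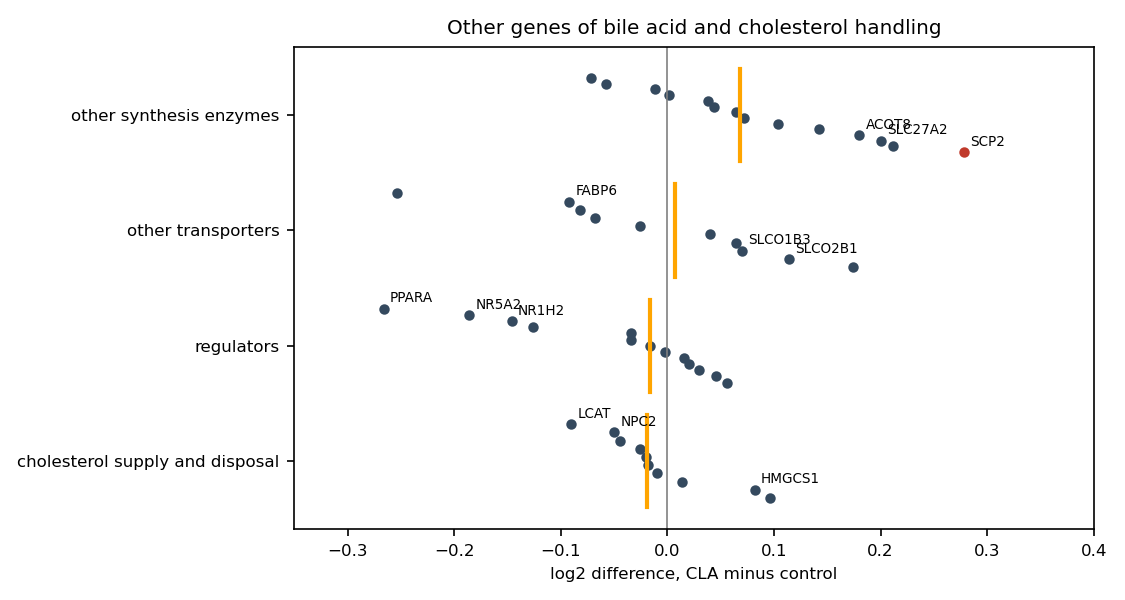
Differences (log2, CLA minus control, horizontal axis) of the 47 other genes, 1 point per gene at its brightest probe set, in 4 lists, with each list's median as an orange bar. Red marks an unadjusted p under 0.05, reached by SCP2 (0.28) alone; the 3 genes of smallest p in each list are named.

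**Figure D4:**
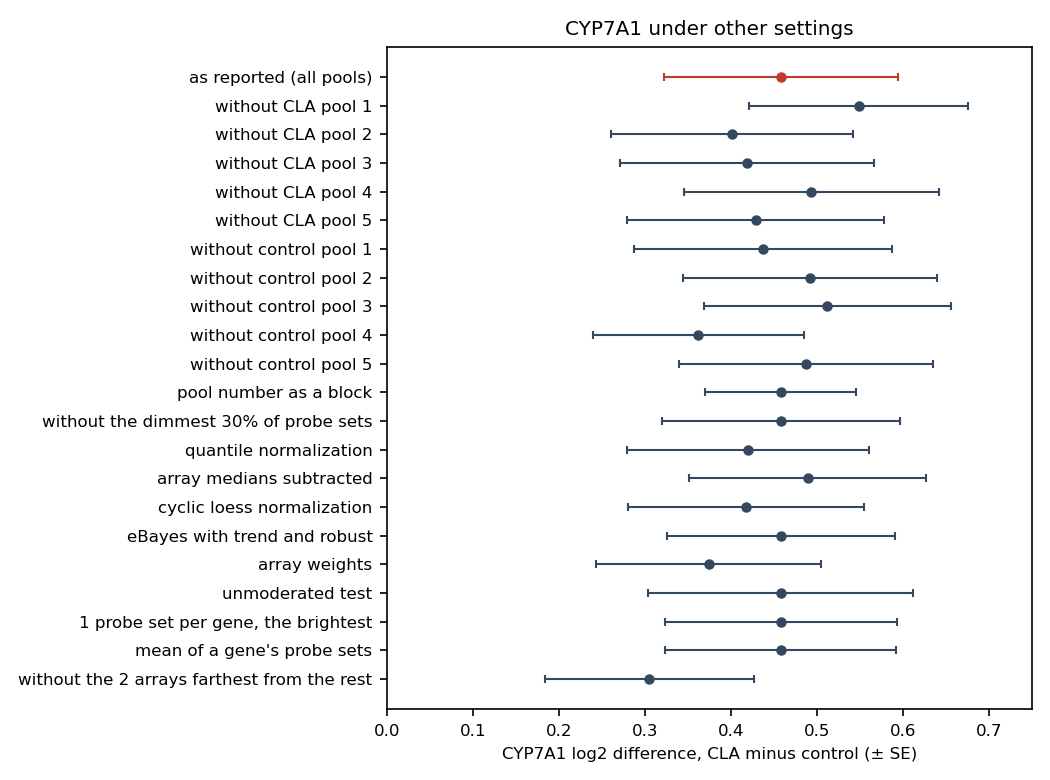
The CYP7A1 difference (log2, CLA minus control, horizontal axis) with its SE as analysed (red) and under 21 alternatives. It was positive in all of them, from 0.31 to 0.55, and passed the adjusted test in none. Alternatives that changed only the SE or the number of tests left it at 0.46 by construction, so its sign could not turn there.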

How the data were processed

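The deposited values are log2 signals, 1 per probe set and array, on the Affymetrix bovine array. The submitters' processing notes name Affymetrix Expression Console 1.1 and RMA, and settings are not given in the sources used here. They were used as deposited. Of 24128 probe sets, 112 manufacturer controls were left out. Annotation gave 13292 probe sets 1 symbol, 86 several and 10638 none. In R 4.3.3, limma 3.58.1 (lmFit, eBayes) fitted CLA minus control over the 10 arrays, without covariates, and adjusted over 24016 probe sets. Exact permutation tests (Python 3.11.15) used every regrouping of the arrays, or every reordering within groups for correlations. The fit was tested on simulated data. The number of arrays limits the precision.

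Members, lists and tests were chosen with earlier results of these data known. Named genes were all members, and in each of the 4 lists the 3 genes of smallest p and any under 0.05. The 5 genes with the highest (most positive) and the 3 with the lowest (most negative) correlation to CYP7A1 were named too. AMACR, HSD17B4, ACOX2, ABCD3, CYP39A1, HSD3B7, ABCG8, SLC51A, SLC51B, KLB, HNF4A, RXRA, SCARB1 and SREBF2, and the genes of the closing observations, were added after their values were seen. The pool numbers of the 2 groups share no stated source. Over all probe sets, same-numbered pools did not deviate together (r from -0.086 to 0.092), so pools were not paired. Alternatives are given in the closing section.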

Additional observations from a re-analysis of the deposited data

Results flagged for a closer look

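Of 66 groups of 5 pools screened for a single pool far from the others, 6 held one, where chance alone flags about 1 in 20 groups. SLC10A1 set 2 read 11.88 in CLA pool 1, with the next CLA pool at 11.66. LCAT read 11.76 in control pool 4, with the next at 11.46. The spread of log2 values over the array was 2.34 in control pool 5, below the 2.38 of the next control pool. The difference between the 3′ and 5′ control probe sets for GAPDH, a sign of RNA degradation, was 2.65 in CLA pool 5, with the next CLA pool at 2.25. The same difference for elongation factor 1 alpha was 3.47 in CLA pool 2, with the next CLA pool at 0.69. The mean of the skeletal muscle markers was 5.97 in control pool 1, with the next control pool at 5.43.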

How the results depend on the processing

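The CYP7A1 difference stayed positive and short of the adjusted test under all 21 alternatives. Its sign could not turn in those that changed only the SE or the number of tests, such as the replicate block. The difference lay between 0.36 and 0.55 when single pools were left out, with limma adjusted p from 0.302 to 0.707. It was 0.42 after quantile or cyclic loess normalization, 0.49 on median-centred arrays and 0.37 with array weights. With the pool number as a replicate block, which nothing in the labels supports as a pairing, it was 0.46 ± 0.088 SE (limma adjusted p = 0.353), and no member passed the adjusted test. No CLA pool correlated best with the control pool of its own number. Leaving out CLA pool 2 and control pool 4 together was chosen after seeing the data. Over the whole array 1 probe set passed limma without those 2 arrays (adjusted p = 0.0302) and 0 under the other 20 alternatives. Probe sets with an unadjusted p under 0.05 were 962 higher and 1173 lower as deposited. They were 1100 and 817 quantile-normalized, 1474 and 627 median-centred and 1196 and 779 with cyclic loess.

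Member probe sets with an unadjusted p under 0.05 numbered 1 to 3 when single pools were left out, with 1 without CLA pool 1. They numbered 1 after cyclic loess and 1 of 4 genes with a gene's sets averaged. Members whose groups did not overlap numbered 1 to 2 when single pools were left out (2 without CLA pools 1 or 2 or control pool 5). They numbered 0 after quantile or cyclic loess normalization, with averaged sets and with 1 probe set per gene. Without the 2 farthest arrays they numbered 2. Over all probe sets both counts rose too, from 473 to 611 or more and to 1091. Of the 47 other pathway genes, 1 to 3 had an unadjusted p under 0.05 when single pools were left out. Leaving out CLA pool 1 or 3 gave 1, any other 2 or 3. Subtracting array medians gave 4, and array weights, the unmoderated test and 1 probe set per gene 2 each. The replicate block, the trend and robust options and dropping the 2 farthest arrays gave 3 each. At these settings 6.56% to 9.56% of all probe sets tested reached that p.

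Signs turned for 7 probe sets whose differences were smaller than their SE. When single pools were left out, CYP27A1 ranged from -0.037 to 0.038 (positive without CLA pools 1 or 5 or control pool 3). FGFR4 set 1 ranged from -0.10 to 0.023 (positive without CLA pools 4 or 5 or control pools 2, 4 or 5). On median-centred arrays they stood at 0.021 and 0.013. SLC10A1 set 4 ranged from -0.12 to 0.32 (negative without CLA pool 1 or control pool 5) and set 3 from -0.004 to 0.16 (negative without control pool 1). HMGCS1 ranged from -0.0085 to 0.21 (negative without control pools 1 or 4). NR5A2 ranged from -0.34 to 0.0020 (positive without CLA pool 2) and stood at 0.0025 without the 2 farthest arrays, where NPC2 stood at 0.0075. The cause was not tested. Detection calls were not among the values used, so signal over background was not set per gene.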

Other observations

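Several genes of the pathway lists were read by probe sets that gave different signs or sizes. KLB, the co-receptor of FGFR4, had 4 probe sets, which differed by -0.03 at the brightest and by -0.13, 0.03 and 0.02 at the others. SLCO2B1 differed by 0.11 at its brightest set and by -0.20 at the dimmer one, and LCAT by -0.09, 0.07 and -0.17 from the brightest to the dimmest. PPARA differed by -0.27 at its brighter set and by -0.008 at the dimmer one. SREBF2 differed by -0.03 at its brighter set and by -0.19 at the dimmer one, whereas the sets of HMGCS1 differed alike, by 0.08 each.

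Among the 47 genes at their brightest probe sets, the cholesterol esterifying enzyme SOAT2 varied most between CLA pools. Its SD was 0.79 in CLA pools and 0.30 in control pools, at a difference of 0.10 ± 0.31 SE. A dimmer probe set of NCOR1 varied widely in both groups, with an SD of 0.82 in CLA pools and 0.75 in control pools.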
